A study of Mus musculus with 40 samples.

Results

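The effect of the diet fed after weaning on liver DNA methylation was examined in animals born from LF fed dams, as the difference between 10 mice fed HF and 10 mice fed LF. These are 20 of the 40 mice with reduced representation bisulfite sequencing (RRBS) data, and the rule that picks them uses only the maternal and adult diets in their labels. All were male C57BL/6J mice of 9 weeks, an inbred strain, whose mothers had received the low-fat, high-carbohydrate diet (LF) up to weaning. From weaning one group received the same LF diet and the other a high-fat, low-carbohydrate diet (HF), males of a cage being divided between both diets, whose main fat was coconut oil. The labels do not give the cage or litter, so neither was modelled and mice may share them. The other 20 mice, born from HF fed dams and also fed HF or LF after weaning, are used below to show where the response in animals born from LF fed dams differed.

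RRBS enriches for CpG-rich DNA by cutting with MspI, and bisulfite then turns unmethylated cytosines into uracil while methylated ones stay cytosine, so that the share of reads with a cytosine gives the percent methylation of that CpG. In mammalian liver most CpG-dense promoters carry almost no methylation, whereas gene bodies and intergenic DNA are mostly methylated. A CpG with an intermediate value is methylated in some cells or on some alleles and not on others, and whole liver holds hepatocytes together with Kupffer, endothelial, stellate, bile duct and blood cells, so a change in the mixture of cells and a change within a cell cannot be told apart.

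Reads counted at CpGs summed to 3488092 to 13768497 per mouse (median 8754226.5) in animals fed HF and to 4272932 to 17717689 (median 7682335) in animals fed LF. The median depth per CpG was 12 to 29 reads in animals fed HF and 13 to 38 in animals fed LF. It was below 15 reads in 1 mouse fed HF (replicate 10) and in 3 mice fed LF (replicates 1, 7 and 9). Squared differences between mice of a group were 1.21 to 1.62 times the sampling error of the reads over 90 pairs, counting PCR copies as separate molecules, and each library was counted as 1 mouse. Of 400298 CpGs, 262317 reached 10 reads in 36 or more mice of the 40, and 238168 of these varied among the 20 mice and were tested.

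Few single CpGs differed. At an FDR of 5%, 2 CpGs passed (0.00084% of those tested), and both were more methylated in animals fed HF (Student's t-test with Benjamini-Hochberg adjustment). Both calls were lost with a quasi-binomial model (FDR 0.765), limma (0.0979), mean methylation as covariate (0.0619) and without the 4 mice with a median below 15 reads (0.182 and 0.126). Over these settings other than limma, whose values are log2 ratios, the differences were 12.6 to 13.2 points at the first and 7.40 to 8.05 at the second, against 13.6 and 8.16. Without adjustment, p was below 0.05 at 9609 CpGs (4.03%), with 5292 (2.22%) more and 4317 (1.81%) less methylated in animals fed HF. Among 30679 bins of 1000 bp with at least 3 CpGs, 1 passed the same threshold (0.00326%). The count of bins with p below 0.05 before adjustment gave 1657 (5.4%), split into 937 (3.05%) with higher and 720 (2.35%) with lower methylation in animals fed HF. The median difference over all CpGs tested was 0.0832 percentage points, and differences ran from -28.6 to 28.4. A difference of 10 percentage points or more was seen at 4167 CpGs (1.75%) and of 20 or more at 45.

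The precision of a single CpG limits what these counts can show. The median 95% interval of a difference was 5.23 percentage points to either side over all CpGs tested and 11.3 where mean methylation lay between 20% and 80% (39918 CpGs). Averaging over a bin narrowed the interval to 2.85 points over all bins and to 6.89 for the 5685 bins between 20% and 80%. At a CpG of such precision, a difference smaller than its interval could not be told from 0.

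**Figure D1:**
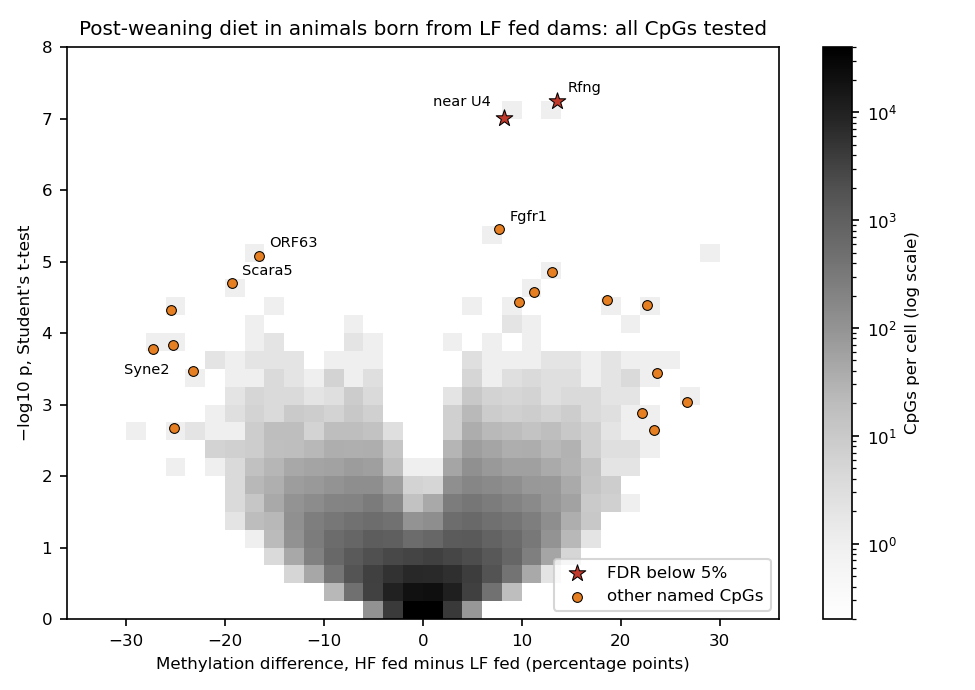
Difference in methylation (HF fed minus LF fed, percentage points) against −log10 p of Student's t-test for the 238168 CpGs tested among animals born from LF fed dams; grey cells count them on a log scale, circles are named CpGs and stars the 2 with an FDR below 5%. Both stars lie on the side of higher methylation in animals fed HF.

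The CpG with the smallest p-value lay in Rfng, which encodes radical fringe, a glycosyltransferase that modifies Notch receptors. It was at chr11:120645360 on mouse build NCBIM37 (mm9), 139 bp from the transcription start, in a coding exon within the promoter window of the minus-strand gene (chr11:120642060-120645521). Its surroundings are given here on the plus strand (chr11:120645341-120645381), together with the other CpG that passed and with the next by p-value, and the measured CpG is in capitals.
Rfng: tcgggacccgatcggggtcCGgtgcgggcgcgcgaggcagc
chromosome 19: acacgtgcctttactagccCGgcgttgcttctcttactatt
Fgfr1: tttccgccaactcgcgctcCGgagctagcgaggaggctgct
Animals fed HF had 11.8%, 14.3% and 19% methylation at the Rfng CpG (lowest, median and highest of the 7 of 10 mice with a value), and animals fed LF 0%, 0% and 8.0% (10 mice). The groups did not overlap. Methylation rose from 1.61% ± 2.89 (SD) to 15.2% ± 2.60, a difference of 13.6 ± 1.37 percentage points (SE; FDR 0.0119; exact permutation p = 5.14e-05), on 10 to 40 reads per mouse. The 10 other CpGs lay within 100 bp, with differences of -3.55 to 1.23 points, and 0 of them were higher in animals fed HF at p below 0.05.

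The second CpG that passed was intergenic, on the minus strand at chr19:26497817 (shown as chr19:26497797-26497837), 181833 bp from the start of Smarca2, a chromatin remodelling ATPase, and 162834 bp from the nearest annotated start, a U4 small nuclear RNA. It was 95.5%, 100.0% and 100.0% methylated (lowest, median and highest) in animals fed HF and 85.7%, 90.9% and 92.9% in the 9 of 10 animals fed LF with a value. Methylation rose from 90.4% ± 2.18 to 98.6% ± 1.87, by 8.16 ± 0.929 points (SE; FDR 0.0119; exact permutation p = 1.08e-05), again without overlap. The single other CpG within 100 bp differed by 6.42 points and did not pass p below 0.05.

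No CpG beyond these passed, and the following are described by the size of their differences. In the promoter of Fgfr1, a receptor for fibroblast growth factors (chr8:26630138, shown as chr8:26630119-26630159, 171 bp upstream of a start), animals fed HF had 4.55% to 12.5% (median 9.76%) and animals fed LF 0% to 5.0% (median 0%). The means were 8.71% ± 2.92 and 0.976% ± 2.06 (FDR 0.281), and the groups overlapped at their edges. An intronic CpG of ORF63 (chr16:87581255) had 58.6% to 67.9% in animals fed HF and 69.6% to 94.4% in animals fed LF. Its difference of -16.6 ± 2.58 points (FDR 0.463) separated the groups, with 9 of 10 mice measured in each.

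A CpG in a coding exon of Scara5, a scavenger receptor that takes up ferritin (chr14:66378525), was also lower with HF feeding in the other 20 mice. It passed an FDR of 5% in neither set of mice. The median was 68.8% in animals fed HF, with a highest value of 77.8%, and 87.5% in animals fed LF (77.8% to 97.2%, 9 of 10 mice), so that the groups met at 77.8%. The difference was -19.3 ± 3.31 points (FDR 0.680). Of 6 CpGs within 100 bp, 5 had a difference of the same sign, 4 of them at p below 0.05. Among animals born from HF fed dams, with 8 of 10 mice fed HF measured, the same CpG differed by -34.8 ± 5.69 points. Its exact permutation p was 0.000183 there, and its FDR by Student's t-test 0.361. One mouse born from an HF fed dam and fed HF, at 96.3%, lay among those fed LF. The same mouse had 87.1% at the Syne2 CpG described below.

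By the rule of size, 10 further CpGs with differences above 20 percentage points were named, with an FDR of 0.747 to 0.808. The 5 largest with lower methylation in animals fed HF, among CpGs with at least 9 mice measured in each group and p below 0.01, ran from -27.2 to -23.3 points. They lay in introns of Syne2, which encodes nesprin-2 of the nuclear envelope (chr12:77203410), and of Nsg2, a neuronal vesicle protein (chr11:31934680), and in intergenic DNA, 10567 bp from the start of 9130401M01Rik (chr15:57852021), 44586 bp from that of Pou3f3, a neural transcription factor gene (chr1:42798577), and 64141 bp from that of Cep170, which encodes a centrosomal protein (chr1:178620387). At the Syne2 CpG animals fed HF ranged from 28.6% to 66.7% (median 38.7%) and animals fed LF up to 92.9% (median 70.6%), and the groups overlapped. The 5 largest in the other direction ran from 22.1 to 26.7 points. These were 2 neighbouring CpGs in an intron of Ergic1, a cargo protein of the endoplasmic reticulum and Golgi (chr17:26771165 and chr17:26771131), and CpGs in Zfp652, a zinc finger gene (chr11:95691885), Pole2, a DNA polymerase epsilon subunit (chr12:70322166), and Zc3h7b, a zinc finger RNA-binding protein (chr15:81605284).

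At a CpG 8979 bp upstream of Bambi, which encodes a decoy receptor of TGF-beta signalling (chr18:3498976), all 10 animals fed HF (up to 64.7%) lay above all 10 fed LF (at most 37.5%), with a difference of 18.7 ± 3.42 points (FDR 0.747). Other CpGs among the 10 with the smallest p-value were in intergenic DNA 98201 bp upstream of Trpm3, a cation channel gene (chr19:22115408, 13.0 ± 2.21 points), and 204388 bp upstream of Gm9843 (chr16:76608345, 11.3 ± 2.02), and in a non-coding transcript, Gm13111 (chr4:154015593, 9.71 ± 1.75).

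**Figure D2:**
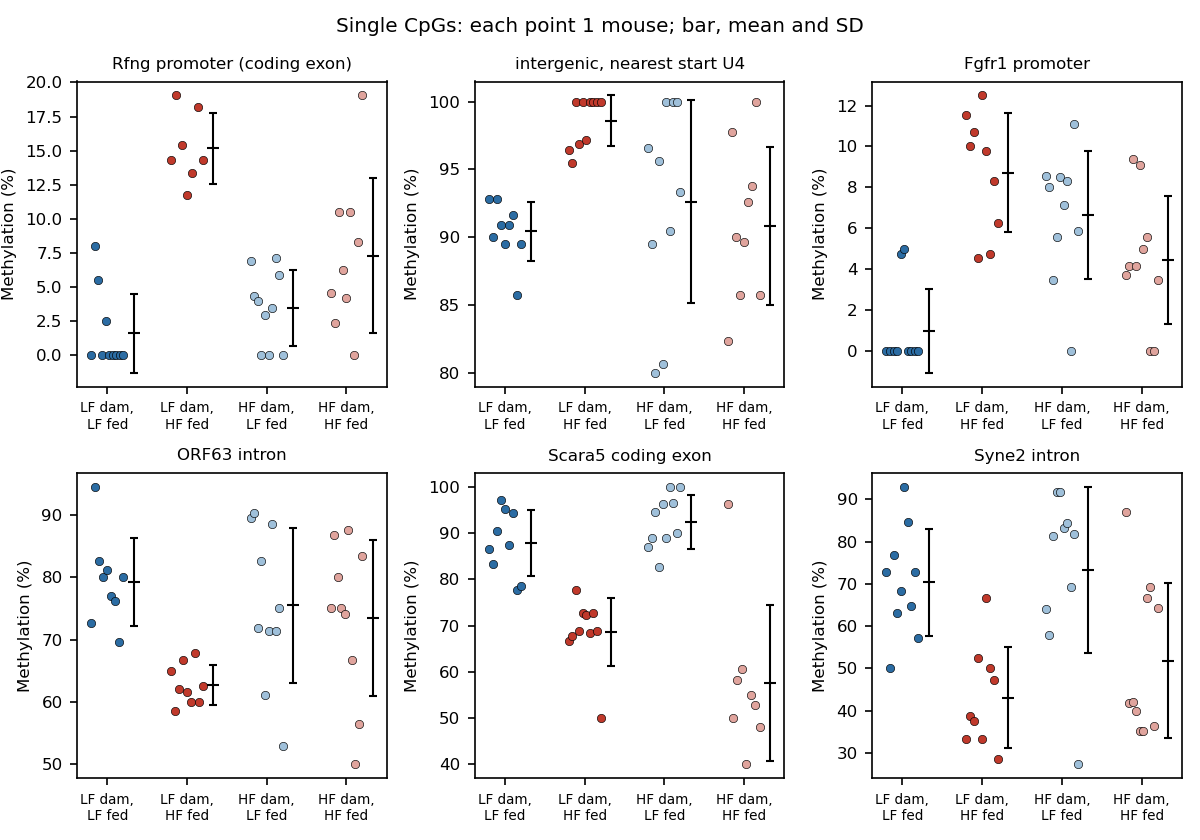
Percent methylation of 6 CpGs in each mouse (1 point each) of the 4 groups, with the mean and SD as bars. At Rfng, the intergenic CpG of chromosome 19 and ORF63 the 2 groups of animals born from LF fed dams do not overlap, and at Scara5 and Syne2 the animals born from HF fed dams differ in the same direction.

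Averages over bins showed which differences extended over several CpGs. The 1 bin that passed an FDR of 5% lay upstream of Qrich2, a gene known for its part in the sperm tail. The bin chr11:116318001-116319000 holds 4 measured cytosines at 3 CpG sites, 1982 bp from the start of the minus-strand gene. Its sequence (chr11:116318523-116318634, plus strand, measured CpGs in capitals) is shown with those of 4 further bins in which all CpGs had a difference of the same sign, Smad6 (chr9:63828347-63828468), Sept4 (chr11:87388210-87388312), Ergic1 (chr17:26771051-26771175) and Zfp652 (chr11:95691857-95691895).
Qrich2: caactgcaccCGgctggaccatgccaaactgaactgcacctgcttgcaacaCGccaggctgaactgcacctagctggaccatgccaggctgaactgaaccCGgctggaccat
Smad6: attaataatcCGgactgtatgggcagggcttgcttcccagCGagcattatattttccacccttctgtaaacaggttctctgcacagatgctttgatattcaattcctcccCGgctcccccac
Sept4: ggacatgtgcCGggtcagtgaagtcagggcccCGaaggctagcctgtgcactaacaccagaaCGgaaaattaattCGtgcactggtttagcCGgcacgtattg
Ergic1: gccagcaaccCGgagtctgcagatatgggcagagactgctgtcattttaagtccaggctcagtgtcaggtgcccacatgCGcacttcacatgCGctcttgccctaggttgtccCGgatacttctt
Zfp652: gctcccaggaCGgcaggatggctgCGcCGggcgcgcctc
The Qrich2 bin had 68.8%, 73.0% and 77.1% methylation in animals fed HF (lowest, median and highest) and 79.0%, 80.8% and 84.7% in animals fed LF, so all 10 of the former lay below the latter. Methylation fell by 7.72 ± 1.05 points (SE; FDR 0.0231; exact permutation p = 1.08e-05), from 81.1% ± 1.94 to 73.4% ± 2.68. All 4 cytosines were lower, by 4.90 to 11.8 points, but only 1 at p below 0.05. The call did not rest on a wide margin, since it was lost when any 1 of 9 of the mice was left out (FDR up to 0.0754).

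The other bins had an FDR of 0.133 or more. In an intron of Smad6, which encodes an inhibitor of BMP signalling, all 3 CpGs were lower in animals fed HF. Animals fed HF ranged from 52.3% to 72.6% (median 63.8%) and animals fed LF from 68.7% to 82.6% (median 76.2%), with a difference of -12.2 ± 2.11 points (FDR 0.177). In an intron of Sept4, a septin of the cytoskeleton, all 5 CpGs were higher at p below 0.05, by 10.1 to 16.8 points. Animals fed HF ranged from 24.6% to 46.4% (median 34.8%) and animals fed LF from 17.3% to 27.8% (median 23.1%), a bin difference of 12.6 ± 2.55 points (FDR 0.473). The largest bin difference was at Zfp652, in a coding exon also overlapped by Phospho1, a phosphatase of bone mineralisation, where 3 CpGs on 1 strand, close enough to share reads, were higher by 20.3 to 23.7 points. The bin was at 42.8% to 63.4% (median 56.9%) in animals fed HF and at 12% to 45.3% (median 29.3%) in animals fed LF, a difference of 22.8 ± 4.36 points (FDR 0.425).

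The bin with the most CpGs among the 10 with the smallest p-value lay at the start of Mosc1, which encodes a reductase of the outer mitochondrial membrane (chr1:186634001-186635000). It covered 32 cytosines of the promoter, a coding exon and an intron. Animals fed HF had 7.34% to 12.9% (median 9.50%) and animals fed LF 3.90% to 7.99% (median 6.29%). The difference was 3.85 ± 0.700 points (FDR 0.246), and 29 of the 32 cytosines were higher in animals fed HF, 8 at p below 0.05. Animals born from HF fed dams differed by -0.0623 ± 0.611 points there. A pair of bins of sparse methylation were higher in animals fed HF, by 1.94 points at the start of Evl, an actin regulator (chr12:109793001-109794000; 1.68% to 3.65% against 0% to 1.66%), and by 1.49 points at Cndp2, a dipeptidase (chr18:84854001-84855000). The largest difference of a single CpG in the Evl bin was 8.28 points, and the next largest 2.32.

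The remaining bins by p-value lay in introns of Abca4 (-3.80 points) and Calr3 (9.68 points) and beside 1700014D04Rik (4.21 points). The 5 largest bin differences with p below 0.01 in each direction were all at bins of 3 to 5 CpGs. Higher in animals fed HF, after Zfp652, were bins of Zc3h7b (18.5 points), Rnf144b, an E3 ubiquitin ligase (17.4), Ergic1 (17.2, with 3 of 5 cytosines at p below 0.05) and Agmat, which encodes agmatinase (16.2). Lower were bins near Pou3f3 (-20.0 points), in Cyp4f17, a cytochrome P450 of the family that hydroxylates fatty acids (-15.2), in Fst, which encodes the activin-binding follistatin (-14.9), at the promoter of Ccdc40, a cilia gene (-14.4), and in intergenic DNA of chromosome 13, 294716 bp from the nearest coding start, that of Diras2 (-13.9). The FDR of these 9 bins ran from 0.486 to 0.857.

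**Figure D3:**
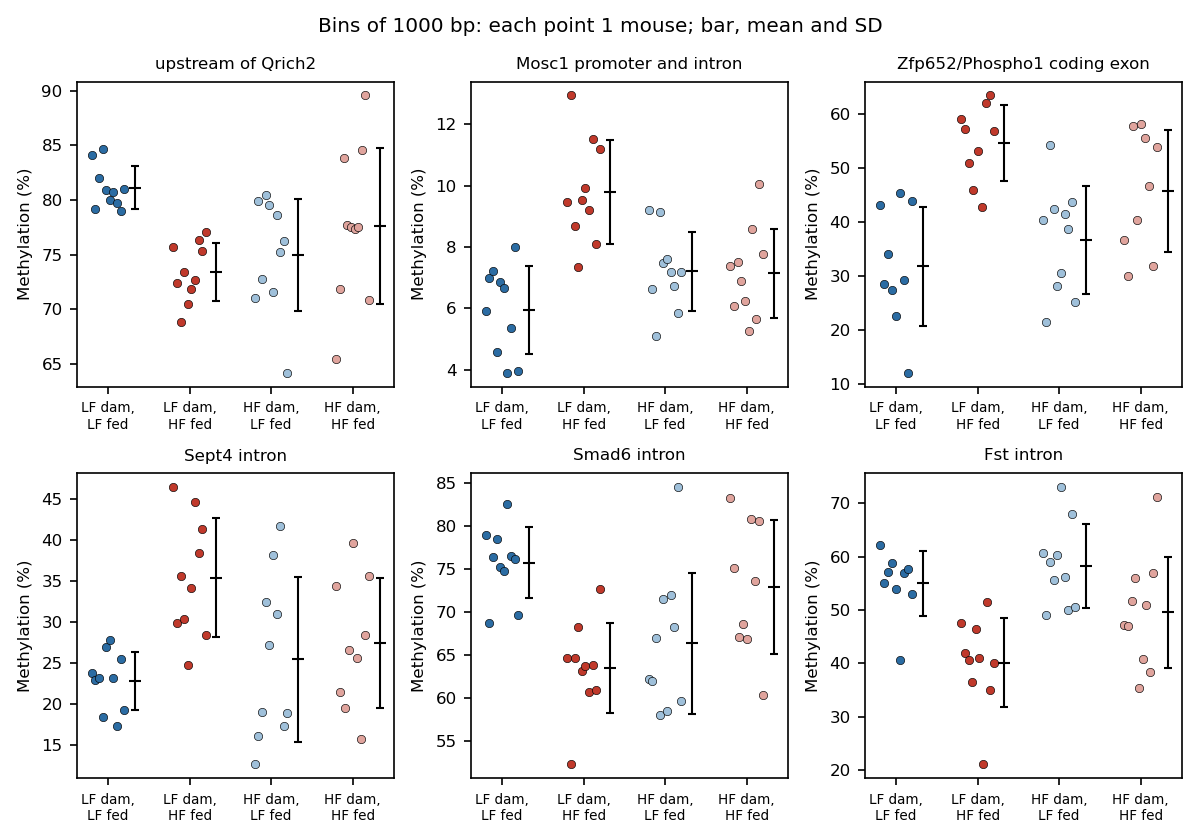
Mean percent methylation of 6 bins of 1000 bp in each mouse (1 point each) of the 4 groups, with the mean and SD as bars. Within animals born from LF fed dams the Qrich2 bin separates all 10 mice fed HF from all 10 fed LF, and the other bins overlap.

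A further 3 loci of energy metabolism were singled out after their values were seen, because they are known liver genes outside the rule for naming. A CpG in the untranslated first part of Ucp2, a mitochondrial uncoupling protein (chr7:107642821, 245 bp from the start), had 53.3% to 76.5% (median 60.8%) in animals fed HF and 66.0% to 90.5% (median 77.9%) in animals fed LF, with a difference of -15.9 ± 3.30 points (FDR 0.808). A bin of 5 CpGs in coding sequence of Pklr, the liver pyruvate kinase of glycolysis (chr3:88947001-88948000), was at 52.6% to 84.8% against 47.7% to 63.6%, 14.9 ± 4.62 points higher (FDR 0.827). An intronic bin of Hsd17b13, which encodes a lipid droplet protein (chr5:104401001-104402000), was at 41.7% to 73.3% against 65.0% to 78.3%, a difference of -13.1 ± 4.11 points (FDR 0.842, 7 of 10 mice fed LF). Among animals born from HF fed dams the differences were 0.378 points at Ucp2, 9.40 at Pklr and -4.16 at Hsd17b13, each with p above 0.05. At all 3 loci the values of both diets overlapped.

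The promoters of listed genes held no CpG past the threshold. The lists cover lipid, glucose and amino acid metabolism, the acute phase, the circadian clock, DNA methylation enzymes and imprinted genes. In all, 10 lists with 278 entries were looked up, of which 160 had CpGs in a promoter window from 1000 bp before to 500 bp after a start. Summed over the lists, 1332 CpGs were tested, and a gene on more than 1 list, such as Igf2, counts in each. At unadjusted p below 0.05, 19 were higher and 12 lower in animals fed HF, and the smallest FDR was 0.808. Over all 98838 promoter CpGs tested the shares were 1.51% higher and 1.2% lower, with a median difference of 0.0578 points. The list medians lay between -0.270 and 0.864 points. Most of these promoters were nearly unmethylated, so that 247 of 274 CpGs of the fatty acid and triglyceride synthesis genes lay below 10%.

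In the list of fatty acid and triglyceride synthesis, 5 CpGs of 225 were higher and 1 lower. Of these, 3 were in Acacb, an acetyl-CoA carboxylase, and the smallest p-value was at Me1, the malic enzyme that supplies NADPH (chr9:86589505), with 0% to 14.3% in animals fed HF and 0% to 6.25% in animals fed LF (5.81 ± 1.79 points). Among the genes of fatty acid oxidation and ketone bodies, 1 of 108 CpGs was higher and 1 lower, the latter in Acaa1a, a peroxisomal thiolase (-9.07 ± 3.19 points). Cholesterol synthesis and uptake had 1 of 78 higher, at Srebf2, its transcriptional activator (5.72 ± 2.26 points), and 0 lower. Among animals born from HF fed dams the Srebf2 CpG differed by -4.92 ± 2.29 points, in the other direction. The bile acid and nuclear receptor genes had 5 of 109 higher and 3 lower, with the smallest p-value at Rara, a retinoic acid receptor (5.88 ± 2.04 points).

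Insulin signalling and glucose handling had 0 of 174 CpGs higher and 2 lower, at Pygl, the liver glycogen phosphorylase (-6.88 ± 2.94 points), and Igf1r. The acute phase and NF-kappaB list had 1 of 94 higher, at Ikbkb, a kinase of that pathway, and 0 lower. Degradation of branched-chain amino acids, propanoate and butanoate had 0 of 83 in both directions by Student's t-test, with the smallest p-value, 0.0649, at Acadsb. The circadian clock had 2 of 163 higher and 1 lower, with Npas2, a partner of the clock protein BMAL1, leading (6.80 ± 2.15 points). The list of one-carbon metabolism and DNA methylation enzymes had 1 of 149 higher and 2 lower, and its smallest p-value was at Mat2b, a regulatory subunit of methionine adenosyltransferase. There animals fed HF had 0% to 4.35% (median 2.28%) and animals fed LF 0% to 7.89% (median 5.72%), a difference of -3.31 ± 0.904 points. Among animals born from HF fed dams the Mat2b difference was 4.02 ± 1.40 points. The list of imprinted genes, which are expressed from 1 parental allele, averaged 34.3% ± 2.48 (SD) in animals fed HF and 35.3% ± 3.81 in animals fed LF. Of its 156 CpGs, 46 had a mean below 10%, such as those of Igf2 and Dlk1. It had 3 of 149 CpGs tested higher and 2 lower, led by Dlk1 (4.27 ± 1.52 points).

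Promoter CpGs of cell type markers gave a partial view of the cell mixture, because 29 of 91 marker genes had CpGs that could be used. Of 267 CpGs tested, 8 were higher and 5 lower at unadjusted p below 0.05, and 0 passed an FDR of 5% (Student's t-test), where 1.51% of all promoter CpGs tested were higher and 1.2% lower at that p. Foxa2, a hepatocyte transcription factor, had 2.92% (HF fed) and 2.91% (LF fed) methylation. Other hepatocyte promoters were methylated, such as Hpd at 84.4% and 86.7%, so the label of liver was only partly checked by this measure. Averages over the leukocyte markers were 55.4% ± 5.23 (SD, 51.0% to 69.2%) in animals fed HF and 55.3% ± 5.15 (48.7% to 67.3%) in animals fed LF. For endothelial markers they were 20.8% ± 3.20 and 22.2% ± 3.45, and for stellate cell and fibroblast markers 7.48% ± 1.60 and 6.87% ± 1.64. The Kupffer cell list rested on 3 CpGs of Itgam (86.8% ± 5.01 and 83.9% ± 9.02), and the adipocyte list on 11 CpGs of 2 genes (8.11% ± 3.93 and 12.2% ± 3.46). Of the 13 CpGs at p below 0.05, 6 were in the cholangiocyte list of 90 (6.67%), all higher in animals fed HF, among them CpGs of Krt7 and Sox9. The part of the cell mixture in the differences at single loci was not tested.

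Mean methylation differed by less than the spread between mice. Over 69330 CpGs covered in all 20 mice it was 38.7% to 39.4% (median 39.1%) in animals fed HF and 38.8% to 39.2% (median 39.0%) in animals fed LF. The difference was 0.0850 percentage points (95% interval -0.107 to 0.277, permutation p = 0.358). By position, the differences were 0.0239 points in promoters (9.28% and 9.26%), 0.0755 in other exons (57.2% and 57.2%), 0.0990 in introns (59.8% and 59.7%) and 0.185 in intergenic DNA (61.8% and 61.7%). By level, they were 0.0358 points at CpGs below 10%, 0.154 from 10% to 90% and 0.0960 at 90% or more. Adjusted over these 7 classes, permutation p was 0.578 for each. Of the 19 autosomes, 16 had a higher mean in animals fed HF, by at most 0.412 points (chromosome 17, permutation p = 0.0305, 0.579 after adjustment). Mitochondrial CpGs were at 2.37% ± 0.160 (SD) and 2.38% ± 0.294. The 9810 CpGs with mean methylation below 2% were at 0.538% ± 0.0267 and 0.521% ± 0.0376. The mitochondrial value is therefore not read as the rate of incomplete conversion.

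Chromosome 17 holds a segment of ribosomal DNA, the repeated genes for ribosomal RNA, read at a median depth of 1287 reads per CpG and mouse (chr17:39979959-39985744, around AY036118). Averaged over 399 CpGs of this segment, which was examined after its values were seen, animals fed HF had 17.2% to 25.5% (median 22%) and animals fed LF 9.93% to 22.3% (median 18.2%), a difference of 3.8 ± 1.43 points (SE, permutation p = 0.0120). Animals born from HF fed dams had 21.8% ± 4.37 and 21.1% ± 3.0, and the 2 differences were not shown to differ (permutation p of the interaction 0.159). With log10 coverage in the model the interaction was 4.73 points (p = 0.0103), and without the 6 of 40 mice with a median below 15 reads it was 5.42 (p = 0.0202). The CpGs of the segment move together and each had an FDR of 0.808 or more, and repeat copies read at 1 place cannot be told apart.

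In the mean over all CpGs, the difference between HF and LF feeding differed with the diet of the dam. Over the 34368 CpGs covered in all 40 mice, methylation was 0.348 points lower with HF feeding among animals born from HF fed dams (39.3% against 39.7%, permutation p = 0.00367). Among animals born from LF fed dams it was 0.0797 points higher. The difference between the 2 responses was 0.428 ± 0.156 points (permutation p = 0.00497). It was 0.827 points in intergenic DNA (adjusted p = 0.0296 over 7 classes), 0.597 in introns, 0.419 in exons and 0.917 for CpGs of 10% to 90% mean methylation (each adjusted p = 0.0345). For promoters it was 0.0971 points (adjusted p = 0.110), for CpGs below 10% 0.0381 points (adjusted p = 0.305) and for those at 90% or more 0.543 points (adjusted p = 0.0519). With the log10 coverage of each mouse in the model it was 0.459 points over all CpGs (linear model over mice, p = 0.00652), and that of promoters was 0.129 (adjusted p = 0.0444). Without the 6 of 40 mice with a median below 15 reads it was 0.452 over all CpGs (p = 0.0171), but no class passed, with an adjusted p of 0.0662 in intergenic DNA, 0.0691 in introns and at 10% to 90%, and 0.107 in exons. One mouse born from an HF fed dam and fed HF (replicate 2) had the lowest mean, 38.4%. Without it the interaction was 0.327 points over all CpGs (p = 0.0113) and the difference among animals born from HF fed dams -0.247 points. With each of the 40 mice left out in turn the interaction over all CpGs was 0.327 to 0.470 points (p at most 0.0172), whereas in each of the 4 classes that had passed the adjusted p was 0.05 or more for 22 of the 40 mice (at most 0.0782).

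At single CpGs and bins no difference between the 2 responses passed. The interaction of both diets had an FDR below 5% at 0 of 254765 CpGs and 0 of 30687 bins (linear model), and p before adjustment was below 0.05 at 10639 CpGs (4.18%) and 1616 bins (5.27%). At 6661 of these CpGs and 1104 of these bins the difference (HF fed minus LF fed) was the higher one for animals born from LF fed dams. Within animals born from HF fed dams, 3 CpGs (0.00124%) had an FDR below 5%. There 9849 CpGs (4.06%) and 1721 bins (5.61%) had p below 0.05 before adjustment, and 6310 of these CpGs were lower with HF feeding. The named loci were chosen for their differences among animals born from LF fed dams, which alone makes a smaller difference in other mice likely. The smallest interaction p-value among the named CpGs was at Fgfr1 (4.11e-06 by the linear model, FDR 0.349). There animals born from HF fed dams had 4.45% ± 3.14 when fed HF and 6.66% ± 3.13 when fed LF. At the Rfng CpG they had 7.31% ± 5.66 and 3.47% ± 2.76, and at the intergenic CpG of chromosome 19 90.8% ± 5.81 and 92.6% ± 7.50. At the Qrich2 bin they had 77.6% ± 7.13 and 75.0% ± 5.16, a difference of 2.66 points in the direction opposite to that in animals born from LF fed dams (interaction FDR 0.938).

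The animals born from HF fed dams are other mice, and their values show where both sets of mice differed in the same direction. Of the 20 named CpGs, 15 had a difference in the same direction there, and 5 of these had p below 0.05. Of all CpGs tested in both comparisons, of every level of methylation, 2.20% had p below 0.05 and the same direction. For CpGs with p below 0.001 among animals born from LF fed dams it was 7.03%, with 5.95% in the opposite direction. The counts of named CpGs and bins are not of separate loci, since Ergic1, Pou3f3, Zfp652 and Zc3h7b were named as both. Among these 5 were Scara5, Syne2 (-21.4 ± 8.52 points), Pou3f3 (-17.0 ± 6.95) and Ergic1 at chr17:26771165 (12.3 ± 4.67). At the neighbouring Ergic1 CpG (chr17:26771131) the difference was 2.06 ± 4.73 points. Of the 19 named bins, 11 had the same direction, against 50.3% of all bins tested in both, and 2 also p below 0.05, against 2.96%. These were the bins of Pou3f3 (-14.6 ± 5.94) and Fst (-8.68 ± 4.12, exact permutation p = 0.0502). Without the mouse at 96.3% in Scara5, exact permutation p was 0.0707 at the Fst bin. By this test only the Pou3f3 bin was below 0.05, with all mice (0.0268) and without that mouse (0.0127). Exact permutation p was then 0.0339 at the CpG upstream of Trpm3 and 0.0409 at that by Cep170, so that 7 CpGs were below 0.05. With all mice it was 0.0710 and 0.0903. The mouse was left out after its values were seen. It also lay against the difference at Trpm3 (16.3%) and Cep170 (78.9%), so the rise to 7 follows in part from the choice. None of the 20 CpGs and 19 bins had p below 0.05 in the opposite direction.

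Beyond the named loci the overlap was small. Of the 185 CpGs tested in both and with p below 0.001 here, 99 (53.5%) had the same direction among animals born from HF fed dams, compared with 50.3% of all 225796 CpGs. With p below 0.05 there as well, 13 (7.03%) had the same and 11 (5.95%) the opposite direction. Of the 38 bins with p below 0.001, 25 (65.8%) had the same direction, compared with 50.3% of all bins, and 2 of these had p below 0.05 there.

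**Figure D4:**
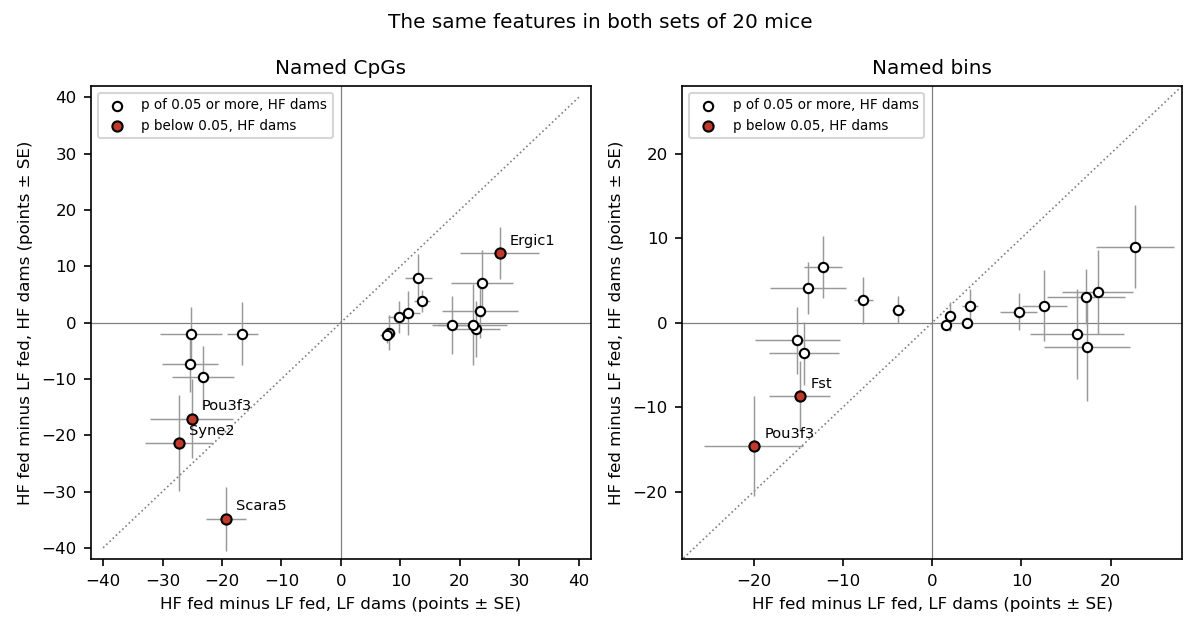
Differences (HF fed minus LF fed, percentage points, with SE) of 19 named CpGs and 19 named bins for LF fed dams (x axis) and HF fed dams (y axis); filled points have p below 0.05 in the latter. Apart from Scara5 every point has a smaller difference on the y axis, and Scara5, Syne2, Pou3f3 and Ergic1 are the filled CpGs. The features were chosen for small p or large differences on the x axis, so smaller values on the y axis do not show a weaker response.

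**Figure D5:**
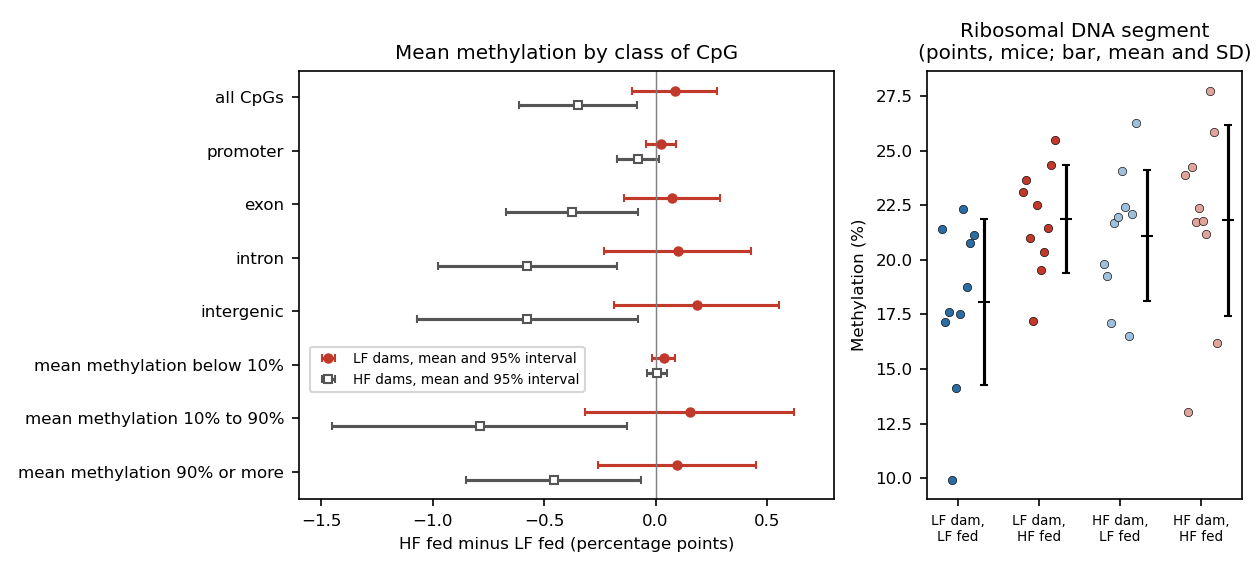
Left, difference in mean methylation (HF fed minus LF fed, percentage points) with its 95% interval for all CpGs and 7 classes, over CpGs covered in the 20 mice for LF fed dams and in all 40 for HF fed dams; right, mean methylation of the ribosomal DNA segment in each mouse with mean and SD. For LF fed dams each interval of the left panel includes 0.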

How the data were processed

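RRBS was done by the authors on liver DNA cut with MspI, and reads were aligned with Bismark, on mm9 per the submitters' processing notes. The authors deposited, for each CpG cytosine and mouse, a count of methylated reads and a total read count, raw and not normalized, with totals missing under 10 reads. There were 0 columns of no mapped mouse. Percent methylation was the ratio of both counts, so a CpG with 10 reads moves in steps of 10%, and the counting error ignores PCR copies. CpGs with a total in at least 36 of 40 mice were kept. Each CpG, and each bin of 1000 bp averaged over at least 3 CpGs per mouse, was compared by a two-sided Student's t-test, which the study applied to single CpGs together with a Wilcoxon test, with Benjamini-Hochberg adjustment over all features tested (Python 3.11.15, scipy 1.17.1). Features with no variance had no p-value. Interactions came from linear models over 40 mice. Single values used exact permutation tests, and means per mouse 100000 permutations, for the interaction on residuals of the additive model. The tests were tried on simulated data. Alternatives included Wilcoxon, Welch, quasi-binomial and limma 3.58.1 tests (log2 ratios with 0.5 reads added), and other filters, covariates and left-out mice.

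Named CpGs were those with an FDR below 5%, the 10 with the smallest p-value, and the 5 largest differences in each direction with p below 0.01 and at least 9 mice per group. Bins followed the same rule without the minimum of mice. Each gene list gave its CpG with the smallest p-value. A named CpG and some marker genes are counted but not reported singly here. Positions were annotated with GENCODE vM1 on NCBIM37, where all 399856 CpGs on chromosomes lay at a reference CpG, and sequences were read from that genome. The comparison, the members and the lists were chosen with earlier results of these data known. Each sample of a group is a separate mouse, and p-values rest on the spread between these mice, which includes the sampling error of the reads. Squared differences between mice of a group were only 1.21 to 1.62 times that error. Cage and litter were not modelled, so the mice may not be independent.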

Additional observations from a re-analysis of the deposited data

Results flagged for a closer look

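Of 96 groups of values checked for a mouse far from the rest by Dixon's criterion, 5 had one, and chance gives about 5%. These were the lowest mouse fed LF at the intergenic CpG of chromosome 19 (85.7%), the lowest mouse fed HF at the Scara5 CpG (50%), the highest mouse fed HF at the CpG near 9130401M01Rik (83.3%), and the lowest mice fed LF in the bins of Fst (40.6%) and Ergic1 (25.2%). The Scara5 value came from replicate 10, which had the fewest reads of the animals fed HF, and rested on 14 reads.

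A further 5 results are means in which the response to HF feeding differed between animals born from LF fed dams and animals born from HF fed dams by a permutation test. The difference of both responses was 0.428 percentage points over all CpGs, 0.419 in exons, 0.597 in introns, 0.827 in intergenic DNA and 0.917 at CpGs with mean methylation from 10% to 90%. Without the 6 mice with a median below 15 reads, a choice made after seeing the data that leaves 34 mice, none of the 4 classes passed (adjusted p from 0.0662 to 0.107; linear model over mice).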

How the results depend on the processing

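The count of 2 CpGs was 2 to 3 when each mouse was left out (3 without animals fed HF 6 or 8) and was 2 under Welch's test, among CpGs with mean methylation of 5% to 95%, and with log10 coverage as covariate. It was 0 with the quasi-binomial model (11313 CpGs at unadjusted p below 0.05), limma (12004) and mean methylation as covariate (9720). It was also 0 with CpGs covered in all 20 (2974) or all 40 mice (1659) and minimums of 20 reads (454) or 30 reads (368), filters that leave both CpGs out. It was also 0 without the 4 mice with a median below 15 reads (9586), a choice made after seeing the data, as was that of all CpGs as deposited, which gave 2. The exact Wilcoxon test gave 0 (8871), but its smallest possible p, 1.08e-05 (0.000103 with 7 and 10 mice), is too high for 2 CpGs to pass. At 30 reads, 358 of 896 CpGs had p below 0.05 and were higher, 281 of them in the ribosomal DNA segment, and 10 were lower.

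The count of 1 bin was 0 with reads summed (1640 bins at unadjusted p below 0.05) and without the 4 mice (1655). It was also 0 with 5 or more CpGs (859) or 20 reads (24), which leave the Qrich2 bin out, and 0 to 2 when each mouse was left out. It was 0 without animals fed HF 2, 4, 6 or 7 or fed LF 1, 3, 5, 7 or 10, and 2 without animals fed HF 5 or 9. The mean difference of 0.0850 points was 1.92 (permutation p = 0.0225) over 962 CpGs with 20 reads in all 20 mice, but 0.608 (p = 0.244) without the ribosomal segment, and -0.00597 with reads summed. Leaving out each mouse gave 0.0452 to 0.129. The ribosomal difference was 2.90 to 4.32 with each mouse left out. Of 405 values for named CpGs and bins, 168 repeat the reported difference, since only the test or the set of features changed. The other 237 kept its direction. The features were chosen by their values in these same mice, so the kept direction is not independent support. In 12 of the 405 the FDR of 5% was lost, all at Rfng, the chromosome 19 CpG or Qrich2, with an FDR of 0.0519 to 1.0. The cause was not tested. No paired analysis was possible because the labels pair no mice between the groups.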
